A study of Mus musculus with 2 samples.

Results

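Ccl5-positive checkpoint-low CD8 T cells were chosen by raw counts of unique molecular identifiers (UMIs), each standing for 1 captured transcript. A barcode needed at least 2 UMIs of Cd3e, Cd3d and Cd3g together, at least 2 of Cd8a and Cd8b1 together and at least 2 of Ccl5. It also needed fewer than 3 UMIs of the checkpoint receptors Pdcd1, Lag3, Havcr2 and Tigit together, and none of Cd4, Foxp3, Ncr1, Klrb1c or Klre1. Limits on Mki67 and Top2a (under 3), on the C1q genes (at most 2) and on Cd79a and Cd79b (at most 1) kept out cycling cells, macrophages and B cells. Of 12815 barcodes that passed the quality filter, 415 met the rule, 234 of them control cells and 181 from the library labelled knockout. These measured values chose the cells, so they are given as a description and support nothing.

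B16F10 melanoma cells had been grown under the skin for 14 days in mice on the C57BL/6 background. Control hosts carried Usp18f/f, an allele of Usp18 flanked by loxP sites. The other hosts carried Usp18f/f LysM-Cre, in which Cre sits in the Lyz2 locus and acts in myeloid cells. Live CD45+ cells of 4 tumors per group were pooled into 1 library per group, of about 8000 cells each, so no difference between the groups has a replicate check.

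CD8 T cells recognise peptides on MHC class I and kill target cells with perforin and granzymes. Ccl5 is a chemokine that antigen-experienced CD8 cells store and release, and naive CD8 cells make little of it. Receptors such as PD-1 (Pdcd1), LAG-3 and TIM-3 (Havcr2) accumulate on T cells under lasting antigen exposure in tumors, while Tcf7 and Il7r mark cells with naive or memory features.

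The filtered libraries held 7086 and 5729 barcodes with medians of 2840 and 4682 UMIs. Usp18 went against the label: macrophages, taken as barcodes with at least 10 C1q UMIs, held 20.2 CPM (UMIs per 1000000 UMIs) among control cells and 73.7 CPM in the other library. Lyz2 went with the label, at 7440 and 12.4 CPM in these cells. Reads near the 3′ end check the deletion only if they lie in the deleted part, which is not given in the sources used here. The second library is therefore called "labelled knockout" throughout. Both pools mixed cells with Xist and cells with Y-linked transcripts. Among the members, 55 control cells held Xist alone and 91 Y-linked UMIs alone, against 142 and 17 in the library labelled knockout, so sex and group cannot be told apart over all members. No barcode sequence was shared between members of the 2 libraries, and 8 were shared over all barcodes.

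The label was checked against markers the rule did not use, Nkg7 and Gzmk. The rule itself set Ccl5 and the checkpoint receptors. Ccl5 (ENSMUSG00000035042, chromosome 11, 83525778 to 83530518, minus strand, GRCm38) had a median of 19 UMIs per cell in each library, up to 123 in control cells and 317 in the library labelled knockout. The checkpoint receptors summed to 0 UMIs in 185 of 234 and in 145 of 181 cells. Nkg7, a granule membrane protein of cytotoxic cells, was found in 89.7% of the 234 control cells and 96.7% of the 181 others. Gzmk (chromosome 13, 113171608 to 113225908, minus strand), a granzyme of memory-like CD8 cells, was found in only 29.1% and 22.7%.

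Some members held transcripts of other cells. A count of 13 genes of phagocytes, neutrophils and dendritic cells was at most 4 UMIs in most members, and 8 or more in the rest. By a limit of 5 UMIs, set after the data were seen, 6 of 234 control members (2.56%, exact binomial 95% interval 0.947 to 5.50) and 19 of 181 (10.5%, 6.44 to 15.9) were mixed barcodes. They had medians of 9692 and 10651 UMIs, against 2591 and 3122.5 in the other members, and supplied 8.01% and 26.2% of all member UMIs. In the control library, 3 of them held at least 10 UMIs of S100a8, a neutrophil gene. There, 4 held at least 20 UMIs of Cd74, a gene of the dendritic cell list, and 1 at least 5 of Apoe. In the library labelled knockout, 6 held at least 2 UMIs of Fscn1, a gene of migratory dendritic cells, and 9 at least 5 of Apoe. At least 20 UMIs of Cd74 were held by 8, and none held 10 or more of S100a8. Scrublet, a doublet caller, marked 6 of the 6 and 9 of the 19.

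**Figure D1:**
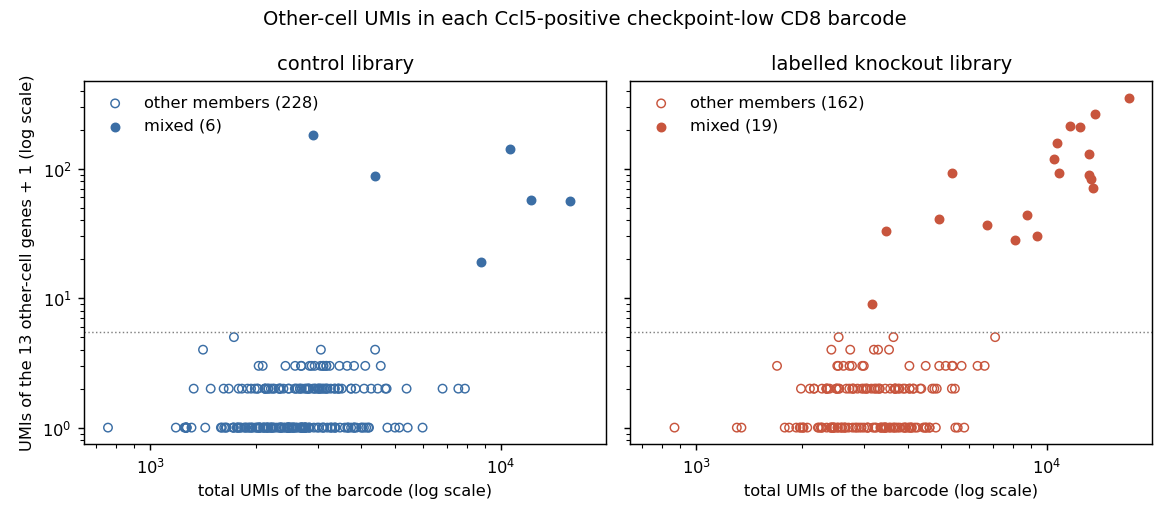
Each point is 1 member barcode. The x axis gives its total UMIs and the y axis its UMIs of 13 genes of other cell types plus 1, both on log scales, with filled points for mixed barcodes. The 6 and 19 mixed barcodes stand apart above the dotted line, with medians of 9692 and 10651 UMIs.

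The marker lists of other cells differed with and without these barcodes. The 17 phagocyte genes summed to 970 and 3882 CPM over all members, and to 411 and 422 CPM without mixed barcodes. The 7 neutrophil genes went from 588 and 24.8 CPM to 67.0 and 22.4 CPM. The 12 dendritic cell genes went from 2196 and 3066 CPM to 268 and 357 CPM. Lyz2 held 25 UMIs in control members and 0 in the others without mixed barcodes. The 10 NK genes summed to 486 and 805 CPM over all members and to 295 and 163 CPM without mixed barcodes. Of these, 6 were detected in each library. Klra4 was at 0, as were the 3 genes the rule excluded. The NK list also holds Eomes, whose level in the members is given below, and Fcer1g and Tyrobp, which are in the phagocyte list too. Its sum therefore does not measure transcripts of NK cells alone. Of the 8 gamma-delta markers, 5, the receptor genes Trdc, Tcrg-C1, Tcrg-C2, Tcrg-C4 and Trdv4, were not found under these names. They gave no counts, so gamma-delta cells could not be checked by them. Sox13 and Il23r were at 0, and the 7 melanoma genes summed to 33.5 and 33.6 CPM. A CPM value sums over cells, so fewer expressing cells and less RNA per cell cannot be told apart from it. Values below are without mixed barcodes (228 and 162 cells), except where all members are named.

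The members made up a similar share of each library. Counting all members, with mixed barcodes, they were 3.30% of filtered control barcodes (2.90 to 3.75) and 3.16% of those labelled knockout (2.72 to 3.65), and 14.97% and 14.93% of CD3 barcodes. Without mixed barcodes they were 3.22% (2.82 to 3.66) and 2.83% (2.41 to 3.29) of filtered barcodes, and 14.6% and 13.4% of CD3 barcodes. Of CD8 barcodes all members were 59.4% (54.4 to 64.3) and 67.3% (61.3 to 72.9), a ratio of 1.13 (1.01 to 1.27). Without mixed barcodes this ratio was 1.09 (0.965 to 1.23), and 0.863 (0.717 to 1.04) when the rule was applied to barcodes thinned to 1000 UMIs. No direction is read from it. These intervals, like all others here, cover counting error only.

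The shares of cells with a UMI depend on depth and on the level of the gene, so each cell was thinned to 1000 UMIs, which left 227 and 161 members. Nkg7 was then found in 70.9% (64.6 to 76.7) and 74.5% (67.1 to 81.1), against 0.831% and 0.809% of B cells, which should lack it and had medians of 1547 and 1827 UMIs. Before thinning it was 89.9% and 96.3%. Id2, a transcriptional regulator of effector cells, was found in 43.2% and 41.6%. Gzmk was found in 16.3% (11.7 to 21.8) and 9.32% (5.31 to 14.9), Gzmb in 8.37% and 8.07%, and Prf1, which encodes perforin, in 1.32% and 2.48%. Ifng, which encodes interferon gamma, was found in 9.25% and 9.94%. The memory-associated transcription factor Tcf7 was found in 25.6% and 23.6%, and Cxcr6, a chemokine receptor of tissue T cells, in 22.9% and 23.6%. Itgae, an integrin of resident T cells, was found in 2.20% and 3.73%. In B cells each of these genes from Gzmk on was found in at most 0.416%. At this depth a cell without a UMI may still express the gene, so a low share does not show that members differ in expression.

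**Figure D2:**
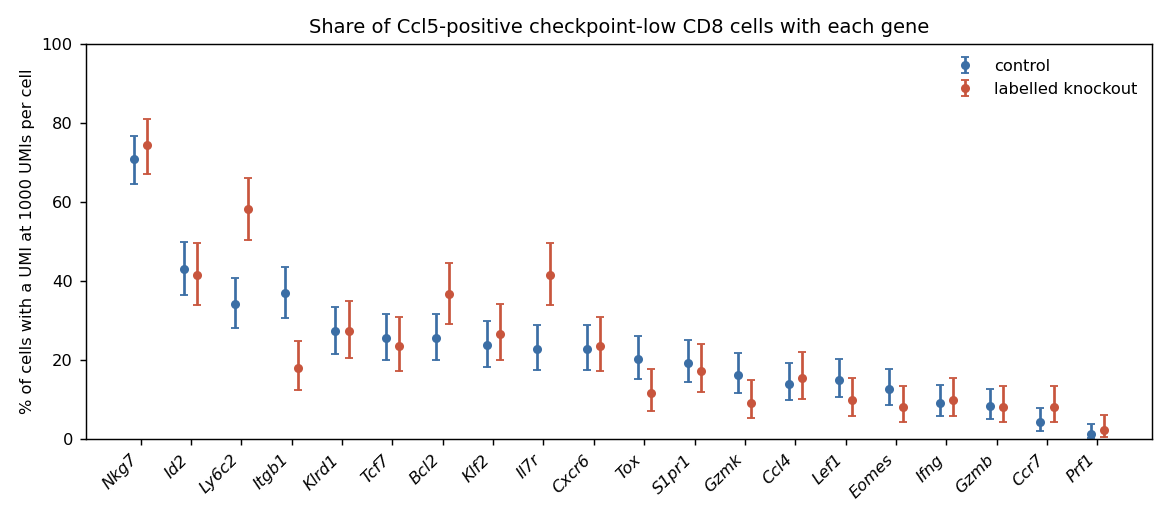
The y axis gives the percentage of members with at least 1 UMI of each gene after thinning to 1000 UMIs per cell, without mixed barcodes, in the control library (blue, 227 cells) and the library labelled knockout (red, 161 cells). Bars are exact binomial 95% intervals. Il7r and Ly6c2 stand higher in the library labelled knockout and Itgb1 lower, while Nkg7, Id2, Tcf7 and Cxcr6 have overlapping intervals.

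In the thinned cells, members with a UMI of Gzmk held more Ccl5 than members without it. The rule selected on Ccl5, so its level among members is constrained and is given as a description. The 37 control cells with Gzmk held 15297 CPM of Ccl5 (14063 to 16611) and the 15 of the library labelled knockout 16600 CPM (14602 to 18795). Members without Gzmk held 9726 and 7795 CPM. Id2 stood at 1081 and 1133 CPM with Gzmk, and at 637 CPM without it in each library. In the library labelled knockout these Id2 intervals overlap (660 to 1815 with Gzmk and 514 to 780 without). Members with Cxcr6 (52 and 38 cells) held Id2 at 1058 and 1263 CPM, against 606 and 504 CPM without Cxcr6. They held Tcf7 at 173 and 105 CPM against 389 and 333 CPM. The Tcf7 values with Cxcr6 rest on 9 and 4 UMIs, and their intervals overlap those without it in each library. These splits use thinned cells of 1 library each and are descriptions. Their intervals pool the UMIs of all cells in a split and leave out the spread between cells.

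Near the limits of the rule, with mixed barcodes kept, cells next to the Ccl5 limit were few. By checkpoint receptor UMIs, Nkg7 rose within the members of both libraries. It was lower in the few cells just outside, by unlike amounts in the 2 libraries. Control cells with 0 or 1 Ccl5 UMI, just outside, held Nkg7 at 467 and 595 CPM (92 and 21 cells). Those with 2 UMIs, just inside, held 1013 CPM (10 cells). In the library labelled knockout the values were 675, 540 and 524 CPM (51, 6 and 6 cells). Taking members with 2 to 4 Ccl5 UMIs, Nkg7 stood at 840 CPM in 23 control cells. In 24 cells of the library labelled knockout it stood at 1056 CPM. No difference between the libraries is read from these few cells. By checkpoint receptor UMIs, control members with 0, 1 and 2 held Nkg7 at 1198, 1996 and 3076 CPM, and the 7 cells with 3 UMIs, just outside, at 1691 CPM. In the library labelled knockout these were 1172, 1677 and 2531 CPM, and 2252 CPM in the 9 cells just outside. The same control members held Tcf7 at 399, 114 and 0 CPM, and the 7 cells just outside at 66.8 CPM. In the library labelled knockout the 3 member levels were 292, 148 and 64.9 CPM, and the cells just outside held 0.

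Against checkpoint-high CD8 cells (at least 3 receptor UMIs, with 2 or more of Ccl5), the members had more of the naive and memory genes. That class was small, with 31 and 23 cells, and deeper, with medians of 5790.5 and 4857.5 UMIs over all its barcodes. Among 4268 genes tested, 154 (3.61%) were at least 2-fold higher in the members in both libraries and 103 (2.41%) at least 2-fold lower. With mixed barcodes kept these were 162 (3.05%) and 92 (1.73%) of 5319. Since the classes were cut from the same cells, these are descriptions. Of 19 naive and memory genes tested, 13 were at least 2-fold higher in both libraries, with median log2 ratios of 2.31 and 2.22. Over all genes tested the medians were 0.04 and -0.04.

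Tcf7 stood at 349 and 318 CPM in the members, against 5.31 CPM in control checkpoint-high cells (1 UMI) and 0 in the others. Il7r, the interleukin-7 receptor that sustains memory cells, stood at 410 and 659 CPM against 21.3 and 0 CPM. Satb1, a chromatin organiser of T cells, stood at 234 and 344 CPM against 5.31 and 36.1 CPM. S1pr1, the receptor by which T cells leave tissues, stood at 179 and 183 CPM against 15.9 and 0 CPM, and Klf3 at 228 and 226 CPM against 10.6 and 0 CPM. Dapl1 and the interleukin-6 receptor gene Il6ra were also among the 15 genes with the highest ratios. These genes were chosen as higher in the members of both libraries, so the like direction is not a check.

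Of 13 costimulatory receptors 4 were at least 2-fold lower in the members in both libraries, and of 8 chemokines and cytokines 3. None of either list was higher, where 3.61% of all 4268 genes tested were higher and 2.41% lower. Of 20 immediate early and stress genes, 2 were higher and none lower. The values that follow are of genes among the 15 lowest ratios. Tnfrsf9, the costimulatory receptor 4-1BB, stood at 19.1 and 14.9 CPM in the members against 165 and 252 CPM. Tnfrsf4, the receptor OX40, stood at 14.4 and 14.9 CPM against 170 and 135 CPM. Rgs16, a regulator of G-protein signalling, stood at 19.1 and 20.5 CPM against 213 and 442 CPM, and Nrgn at 6.38 and 1.87 CPM against 149 and 370 CPM. The chemokine Ccl4 stood at 397 and 312 CPM against 1552 and 4751 CPM, and Ccl3 at 121 and 93.4 CPM against 601 and 2155 CPM. Reads of close relatives such as Ccl3 and Ccl4, or Bcl2a1b and Bcl2a1d, may be split between them. The rule genes Havcr2, Lag3 and Pdcd1 were lower by construction.

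Other lists were compared in the same way, beside 3.61% higher and 2.41% lower over all 4268 genes tested. Of 13 glycolysis and hypoxia genes, 5 were at least 2-fold lower in the members in both libraries. The median log2 ratios of this list were -1.10 and -0.77. Gapdh, a glycolytic enzyme, stood at 719 and 648 CPM against 1887 and 1929 CPM. Of 16 cytotoxic genes, 1 was higher and 4 were lower. Gzmk stood at 164 (134 to 199) and 97.1 CPM (72.5 to 127) in the members, against 175 (121 to 246) and 153 CPM (89.3 to 245), intervals that overlap in each library. Gzmb stood at 87.7 and 125 CPM against 186 and 847 CPM. Nkg7 stood at 1518 and 1513 CPM against 2625 and 3273 CPM. None of 34 interferon-stimulated genes passed the fold in both libraries, and with the low shares over all genes nothing is read from that.

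**Figure D3:**
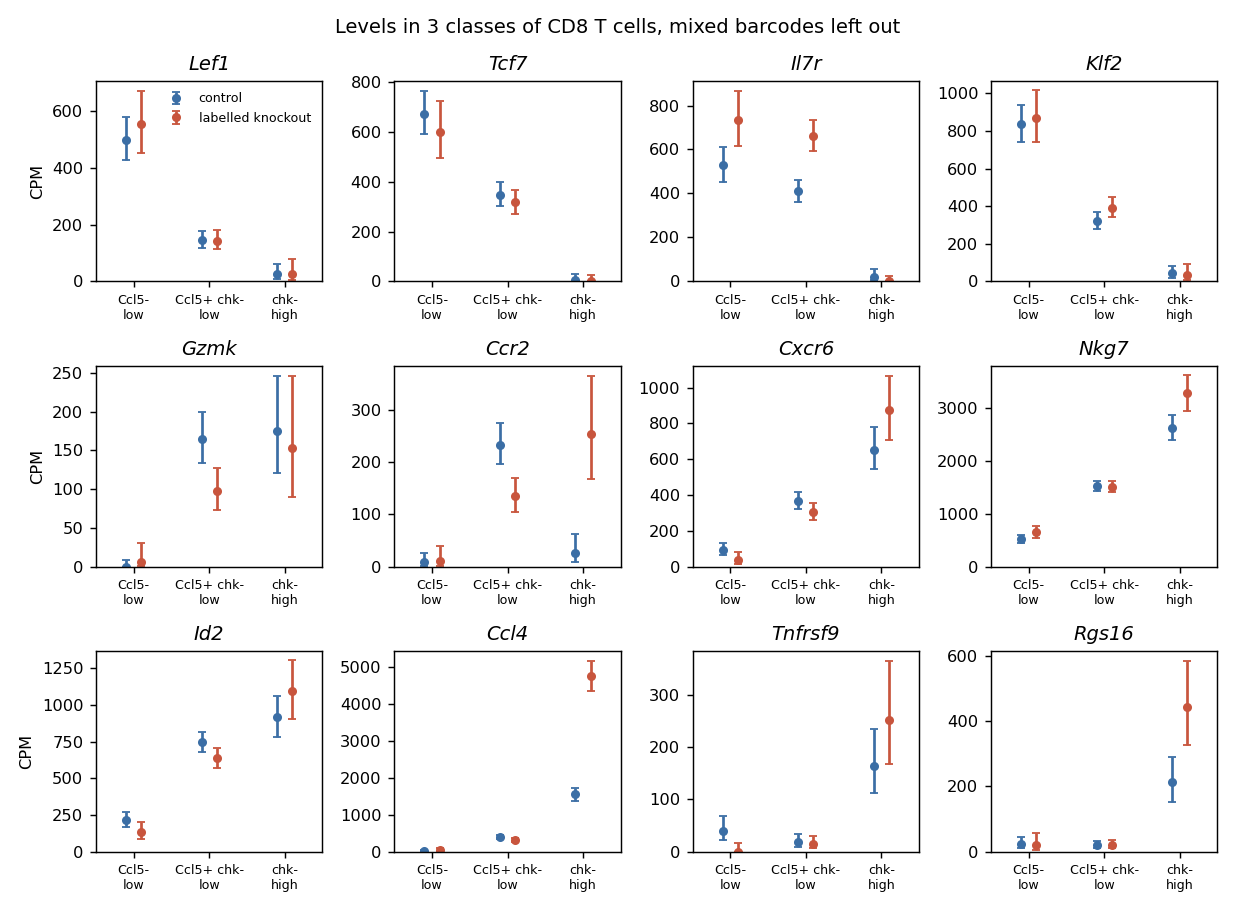
The y axes give CPM of UMIs summed over Ccl5-low, Ccl5-positive checkpoint-low (chk-low) and checkpoint-high (chk-high) CD8 cells, without mixed barcodes, in the control library (blue) and the library labelled knockout (red), with exact Poisson 95% intervals. Lef1, Tcf7 and Klf2 step down from Ccl5-low to checkpoint-high cells, Nkg7 and Cxcr6 step up, and Gzmk and Ccr2 are near 0 in Ccl5-low cells.

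Against Ccl5-low CD8 cells (0 or 1 Ccl5 UMI, 108 and 56 cells), the members had more effector and homing genes. Among 4517 genes tested, 100 (2.21%) were at least 2-fold higher in both libraries and 29 (0.642%) lower. The median over all genes was itself 0.13 and 0.14. With all members and scaling by the median ratio over well-counted genes, the split of 113 higher (2.13%) and 36 lower (0.680%) among 5293 genes became 73 and 48. Of 15 cytotoxic genes 6 were higher, of 22 effector transcription factors 8, and of 18 homing genes 6 were higher and 2 lower. Of 22 naive and memory genes, 8 were lower and 1 higher.

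Gzmk had no UMI in control Ccl5-low cells, which allows up to 8.65 CPM, and 1 UMI (5.47 CPM) in the other library. The members held 164 and 97.1 CPM. Ccr2, a receptor for monocyte-recruiting chemokines that effector T cells also carry, stood at 233 and 134 CPM in the members against 8.65 and 10.9 CPM. Cxcr6 stood at 367 and 303 CPM against 95.2 and 38.3 CPM. Il18rap, a chain of the interleukin-18 receptor, stood at 166 and 119.5 CPM against 31.7 and 5.47 CPM. Klrc1, the inhibitory receptor NKG2A, stood at 81.3 and 74.7 CPM against 17.3 and 0 CPM. These genes were among the 15 chosen as higher in the members of both libraries, so the like direction is not a check.

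Naive-cell genes stood lower in the members than in Ccl5-low cells. Igfbp4 stood at 4.78 and 3.74 CPM against 167 and 126 CPM. Lef1, a partner of Tcf7 in naive cells, stood at 145 and 144 CPM against 499 and 552 CPM. Ccr7, which guides T cells into lymph nodes, stood at 46.3 and 89.7 CPM against 450 and 235 CPM. Igfbp4, Lef1 and Ccr7 were among the 15 chosen as lower in both libraries, so their like direction is not a check. Tcf7 itself stood at 349 and 318 CPM against 675 and 602 CPM. The members therefore lay between the other classes for Tcf7 and Lef1 in both libraries.

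Between the libraries, the counts of differing genes depended on the mixed barcodes. Over all members, 267 of 7032 genes (3.80%) were at least 2-fold higher in the library labelled knockout and 140 (1.99%) at least 2-fold lower. Without mixed barcodes these were 64 of 6310 (1.01%) and 172 (2.73%). Over all members the top differences were Fabp5 (20.5 and 436 CPM), Marcks (29.3 and 298 CPM) and Cxcl16, and the 10 named also included Lgmn, Ms4a4c, Ctsh, Cybb, Grn and Lgals3, several of which macrophages are known to express. The share of mixed barcodes moved with the group, at 2.56% and 10.5%. With 1 library per group no gene can be tested.

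Among the 16 gene lists outside the marker lists, the interferon-stimulated list had the highest median over all members. Of its 52 tested genes, 24 were at least 2-fold higher in the library labelled knockout and none was lower. The median log2 ratio was 0.81 against -0.08 for all genes. The phagocyte marker list had 9 of 12 genes higher and 1 lower, with a median of 1.70. Without mixed barcodes that marker list had 0 of 7 higher and 2 lower, with a median of 0.17. Of the interferon-stimulated list, 6 of 44 genes were then higher and 1 lower, with a median of 0.42 against -0.13. In cells with Xist alone, also without mixed barcodes, 158 of all 4075 genes tested were higher (3.88%) and 194 lower (4.76%). There, 4 of 39 genes of the list were higher, with a median of 0.09 against -0.14. In cells with Y-linked UMIs, of which the library labelled knockout held 17, 7 of 22 were higher and none lower, with a median of 0.31, against 102 higher (3.91%) and 313 lower (12%) of 2608 genes. After 5% of each total was subtracted as free RNA over all members, 23 of 52 were higher, with a median of 0.81, against 277 higher (4.1%) and 163 lower (2.41%) of 6755 genes. In cells with Xist alone and with mixed barcodes kept, 24 of 49 were higher, with a median of 1.00. Over all genes in that setting, 471 of 4927 (9.56%) were higher and 245 (4.97%) lower, with a median of -0.10.

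**Figure D4:**
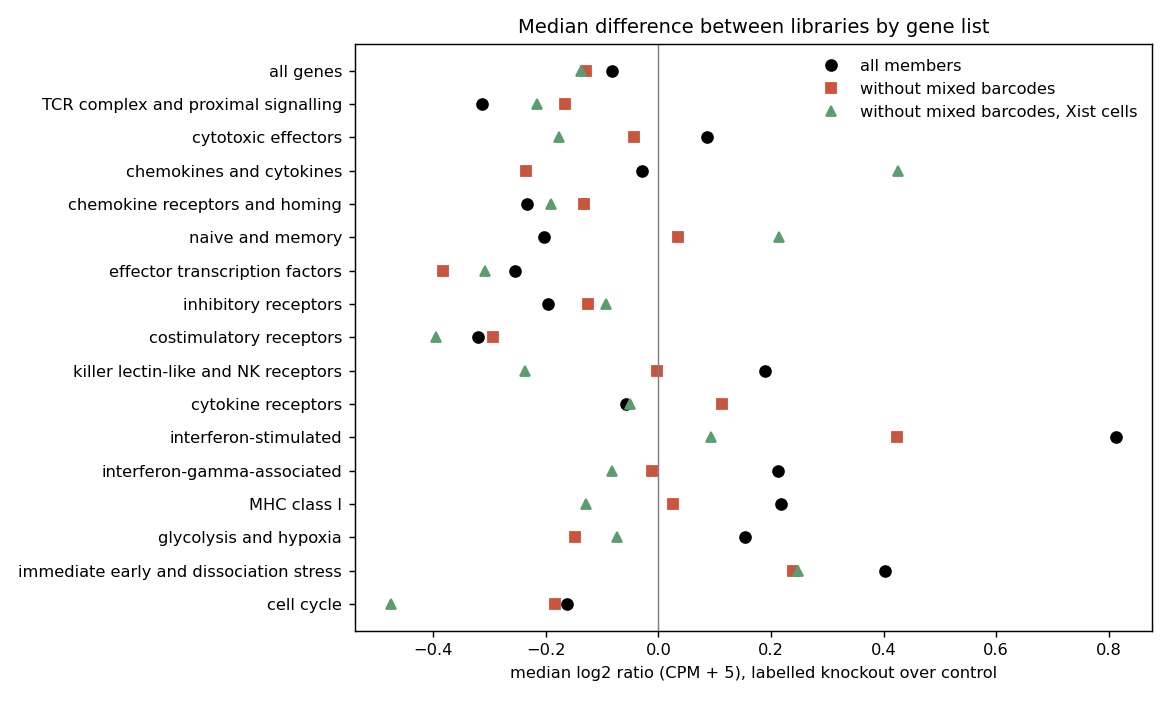
The x axis gives the median log2 ratio of CPM + 5, library labelled knockout over control, for the tested genes of each list, over all members (black circles), without mixed barcodes (red squares) and without mixed barcodes in cells with Xist alone (green triangles). The interferon-stimulated list goes from 0.81 to 0.42 and 0.09.

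Usp18 (chromosome 6, 121245906 to 121270917, plus strand), which takes ISG15 off proteins and dampens type I interferon signalling, held 7 UMIs in control members and 30 in the others. Its level was 11.2 and 56.0 CPM, 5.02-fold higher (2.16 to 13.5), though in cells with Xist it held 3 and 20 UMIs, a fold of 2.31 (0.684 to 12.1) whose interval includes 1. Socs1, which blocks cytokine receptor signalling, stood at 23.9 CPM (13.4 to 39.5) and 97.1 CPM (72.5 to 127), 4.06-fold higher (2.25 to 7.77), and 4.27-fold higher (1.35 to 21.6) in cells with Xist. Mx1, an antiviral GTPase, was 3.38-fold higher (1.54 to 8.21), and 1.99-fold (0.680 to 7.91) in cells with Xist. Isg15, the ubiquitin-like modifier, stood at 23.9 and 71.0 CPM, 2.97-fold higher (1.59 to 5.81). In cells with Xist it stood at 67.4 and 67.7 CPM. Ifit1, which binds foreign RNA, was 2.47-fold higher (1.38 to 4.60), with 23.2% of its UMIs in 1 cell, and 1.12-fold (0.494 to 2.87) in cells with Xist. Of these 5 genes, Socs1 alone kept an interval above 1 in cells with Xist.

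Isg15, Ifit1 and Socs1 carry the core letters of the interferon-stimulated response element upstream of their start. The stretches below come from RefSeq (GRCm38.p6), are written 5′ to 3′ on the gene's strand and show in capitals each match to GAAA, any 2 bases and GAAA again, on either strand (there TTTC, any 2 bases, TTTC), overlapping matches included. They are shown because the interferon results above turn on these genes.
Isg15, chr4:156200819-156200918, minus strand: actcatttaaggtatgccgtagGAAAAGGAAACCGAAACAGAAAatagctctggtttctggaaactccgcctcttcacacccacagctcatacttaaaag
Ifit1, chr19:34640765-34640864, plus strand: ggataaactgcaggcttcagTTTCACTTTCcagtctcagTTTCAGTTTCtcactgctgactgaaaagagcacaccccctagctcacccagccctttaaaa
Socs1, chr16:10785540-10785639, minus strand: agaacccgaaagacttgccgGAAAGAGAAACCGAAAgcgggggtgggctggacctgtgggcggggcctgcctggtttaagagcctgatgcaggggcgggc
Of the 46 interferon-stimulated genes with an entry, 19 (41.3%) held the motif within 250 bases upstream, against 936 of 27025 genes (3.46%) in the whole table. The cytotoxic list held it in 4 of 23 genes (17.4%) and the naive and memory list in 0 of 18. Irf7, Slfn1 and Xaf1, of the interferon-stimulated list, and Plac8 held no match within these 250 bases. A match is a description of letters, not a bound site.

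Ly6c2, Il7r and Bcl2 stood higher in the library labelled knockout, while the naive and memory list as a whole was close. Ly6c2, a surface protein of memory CD8 cells, stood at 711 CPM (647 to 780) and 1162 CPM (1072 to 1257), 1.63-fold higher. Its reads may be shared with its near-identical neighbour Ly6c1. Il7r stood at 410 CPM (361 to 463) and 659 CPM (592 to 732), and Bcl2, which protects cells from death, at 352 CPM (308 to 402) and 631 CPM (566 to 702). The intervals of these 3 genes did not overlap between the libraries, and the log2 ratios in cells with Xist were 0.42, 0.81 and 0.98. At 1000 UMIs per cell, Ly6c2 was found in 34.4% (28.2 to 40.9) and 58.4% of members (50.4 to 66.1), and Il7r in 22.9% (17.6 to 28.9) and 41.6% (33.9 to 49.6). Of the 21 naive and memory genes tested, 1 was past 2-fold and 11 were above 0, with a median of 0.03. Over all 6310 genes tested, 1.01% were higher and 2.73% lower, with a median of -0.13. Tcf7 stood at 349 and 318 CPM and Lef1 at 145 and 144 CPM.

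Itgb1, Itga4, Tox, Eomes, Gzmk and Ccr2 stood lower. Itgb1, the integrin beta-1 chain, stood at 506 CPM (451 to 564) and 204 CPM (167 to 246), 2.48-fold lower (1.99 to 3.12). Itga4, its alpha-4 partner, stood at 936 and 517 CPM, 1.81-fold lower (1.57 to 2.09). Tox, a transcription factor linked to exhaustion, stood at 268 and 116 CPM, 2.31-fold lower (1.72 to 3.15). Eomes stood at 172 and 101 CPM, Gzmk at 164 and 97.1 CPM and Ccr2 at 233 and 134 CPM. In cells with Xist the log2 ratios of Itgb1, Itga4, Tox and Gzmk were -1.96, -1.42, -0.67 and -1.60, and the interval of Tox there includes equal levels. Of 26 effector transcription factors, 3 were at least 2-fold lower, namely Tox, Zeb2 and Prdm1, against 172 of all 6310 genes tested (2.73%).

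Outside the lists, the genes named as higher included Ms4a4c, Amica1, Pydc3 and Plac8. Plac8 stood at 164 and 389 CPM, 2.37-fold higher (1.86 to 3.03), and Ms4a4c at 41.5 and 138 CPM, 3.33-fold higher (2.11 to 5.43). The first of the genes named as lower was Nrp1, which encodes neuropilin-1, at 94.1 CPM (71.6 to 121) and 11.2 CPM (4.11 to 24.4), 8.40-fold lower (3.64 to 23.8). Fmr1 stood at 100.5 and 26.2 CPM, and Lars2, a mitochondrial leucyl-tRNA synthetase, at 284 and 119.5 CPM. For these genes outside the lists, values within cells with Xist are not given. Ccl5 itself stood at 9383 and 7968 CPM, which the rule constrains, and Cd8a at 831 and 616 CPM. The cytotoxic list had a median of -0.04, with Nkg7 at 1518 and 1513 CPM and Ifng at 95.7 and 103 CPM. Gzmc differed only through 1 control cell that held 98.9% of its UMIs. No inhibitory receptor of the 12 tested passed 2-fold. Over all genes tested only 1.01% were higher and 2.73% lower, so nothing is read from this for the receptors.

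**Figure D5:**
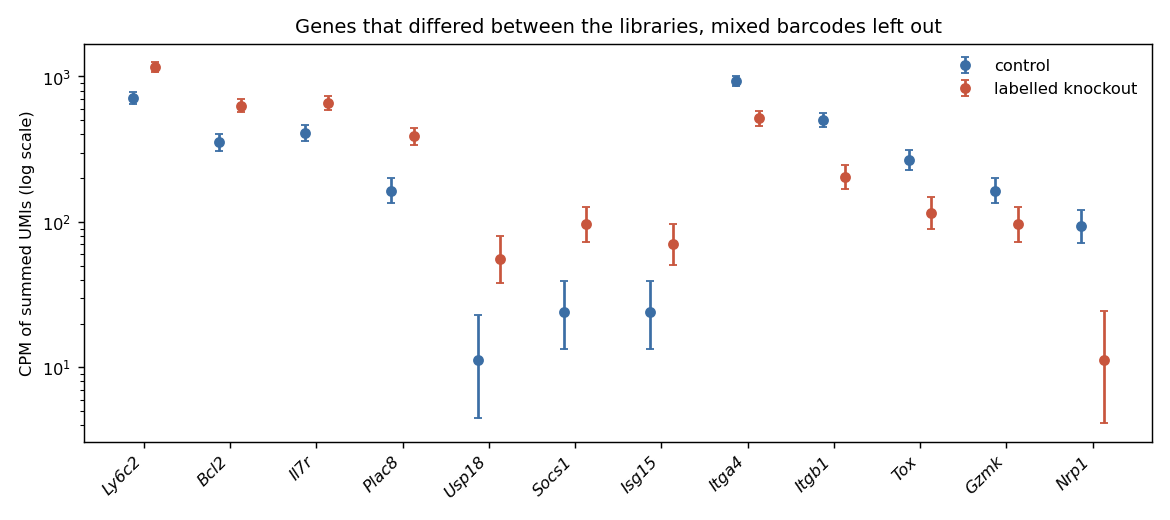
The y axis (log scale) gives CPM of UMIs summed over members without mixed barcodes, in the control library (blue, 228 cells) and the library labelled knockout (red, 162 cells), with exact Poisson 95% intervals. Nrp1 and Itgb1 lie lower and Usp18 and Socs1 higher in the library labelled knockout, with intervals apart.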

How the data were processed

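Single-cell RNA libraries (10x 3' v3) were analysed from the UMI counts per gene and barcode that the authors deposited, made with Cell Ranger 3.0.1 and mm10, per the submitters' processing notes. The feature table holds 27998 genes. Barcodes needed 200 genes or more and no more than 10% of UMIs from mitochondrial genes. Doublets were marked with Scrublet (scanpy 1.11.5, the top 0.8% per 1000 barcodes) but not removed. The members and gene lists were chosen with earlier results of these data known.

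UMIs were summed over the cells of a class in each library and expressed per 1000000 UMIs (CPM). Ratios used CPM + 5 over genes with at least 20 UMIs, a limit of 2-fold, and Poisson or binomial 95% intervals that cover counting error only. A count of 0 was read as at most 3 UMIs. The folds given with an interval are ratios of CPM without the added 5. With 1 library per group there is no test and no p-value. Shares of cells were compared after 1 seeded draw of 1000 UMIs per cell. The pools hold 4 tumors each and cannot be split by animal.

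Genes were named by rule. It took the genes of the selection rule, in each list those of highest level or past 2-fold, outside the lists the 10 highest and 10 lowest ratios between the libraries (at least 50 UMIs, at most 20% of them in 1 cell), and the 15 largest ratios in each direction against each other CD8 class. Mixed barcodes, and each of the 4 alternatives added to the 18 planned ones, were chosen after seeing the data. Gene positions come from GENCODE for GRCm38 and promoter stretches from RefSeq. Some genes named by this rule are not reported here. The script was tested on simulated data. Python 3.11.15, scipy 1.17.1, numpy 2.4.6 and pandas 2.3.3 were used.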

Additional observations from a re-analysis of the deposited data

Results flagged for a closer look

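Xist, the RNA of the inactive X chromosome, served to split the cells, and its own level was not among the gene comparisons of the report. It stood at 401 CPM in the control members and 1242 CPM in those of the library labelled knockout. The level was singled out because it had not been analysed, and the control value is set beside it. The summed Y-linked genes stood at 211 and 51.0 CPM. The labels used here give no sex for the pooled hosts, and sex and group cannot be told apart over all members. The part of sex in the differences between the libraries was not tested. Values within cells with Xist stand beside some of the results only. None are given for Nrp1, Fmr1, Lars2, Plac8, Ms4a4c, Eomes or Ccr2, among others.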

How the results depend on the processing

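No paired analysis was possible because each group is 1 library. The log2 ratio of the members' share was -0.06 and became -0.37 with the rule applied to barcodes thinned to 1000 UMIs. Genes at least 2-fold higher in the library labelled knockout numbered 267. They numbered 89 with that thinned rule, 471 in cells with Xist, 123 in cells with Y-linked UMIs, 145 with a pseudocount of 20 CPM, 487 with at least 5 UMIs and 61 with at least 100. Settings added after seeing the data gave 64 without mixed barcodes, 158 and 102 when also kept to cells with Xist or Y-linked UMIs, and 88 with each member thinned. Genes lower numbered 140, and 222 with a mitochondrial limit of 5%, 230 with the thinned rule, 245 and 374 in cells with Xist or Y-linked UMIs, 247 and 27 with pseudocounts of 1 and 20, 273 and 14 with at least 5 and 100 UMIs, and 313 without mixed barcodes in cells with Y-linked UMIs. The interferon-stimulated median of 0.81 became 0.20 with the thinned rule and 0.094 without mixed barcodes in cells with Xist.

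Against checkpoint-high cells, 162 genes were higher in the members. The count was 82 with the 5% limit, 37 and 11 in cells with Xist or Y-linked UMIs, 80 with a pseudocount of 20, 305 and 42 with at least 5 and 100 UMIs, 46 and 15 without mixed barcodes in cells with Xist or Y-linked UMIs, and 63 with cells thinned. The 92 lower genes became 34 with the 5% limit, 27 with the thinned rule, 8 and 11 by Xist or Y-linked UMIs, 54 with a pseudocount of 20, 176 and 24 by minimum UMIs, 22 and 13 without mixed barcodes by Xist or Y-linked UMIs, and 38 with cells thinned.

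Against Ccl5-low cells, the 113 higher genes became 17 with the thinned rule, 64 and 11 by Xist or Y-linked UMIs, 51 with a pseudocount of 20, 240 and 24 by minimum UMIs, 73 with median-ratio scaling, 62 and 10 without mixed barcodes by Xist or Y-linked UMIs, and 65 with cells thinned. The 36 lower genes became 11 with the 5% limit, 10 with the thinned rule, 20 and 2 by Xist or Y-linked UMIs, 19 with a pseudocount of 20, 59 and 8 by minimum UMIs, 18 and 2 without mixed barcodes by Xist or Y-linked UMIs, and 15 with cells thinned. In 7 of these settings, over both comparisons, a class held under 10 cells. Checkpoint-high control cells numbered 1 with the thinned rule and 2 with Xist. In the library labelled knockout, 2 checkpoint-high and 4 Ccl5-low cells had Y-linked UMIs. Counts in those settings say little about how stable the results are.

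Between the libraries, the log2 ratio of Ifi27l2a became -0.34 without mixed barcodes in cells with Xist, that of Cst3 -1.76 in cells with Y-linked UMIs, and that of Spp1 -0.031 without mixed barcodes. The cause was not tested, except that minimum UMIs and kept cells change how many genes and cells enter. Of the other values, 86 summary values and 889 single-gene values stayed within the limits set, and 172 single-gene values moved beyond them. Depth limits genes of few UMIs, such as Usp18 with 7 and 30.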
